A study of Mus musculus with 5 samples.

Results

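The transcripts described here belong to protein-coding genes but are annotated as targets of nonsense-mediated decay (NMD), and they were followed in ribosome profiling libraries of mouse embryonic stem cells (mESCs). Members were all transcripts with the Gencode gene type protein_coding and transcript type nonsense_mediated_decay with at least 1 CPM in at least 1 library, CPM being the read count of a transcript relative to the total of its library after TMM scaling. They numbered 4836 transcripts of 3074 genes, which was 73.3% of the 6602 such transcripts in the deposited table and 7.22% of the 66972 transcripts that passed the same limit among 135276 listed. The members were chosen by their highest CPM in any of the 5 libraries, so their presence is a description and not a result. The remaining 1766 stayed below 1 CPM in every library, 378 of them with no read at all. Just inside the limit, the lowest member peaked at 1.01 CPM, and just outside it the highest excluded transcript peaked at 0.999 CPM. Of the members, 4235 reached 1 CPM in every library, 4599 reached it in libraries of both methods, 149 only in standard libraries and 88 only in AHARIBO libraries.

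The study compared 2 ways of isolating ribosome-protected fragments (RPFs) from mESCs grown with LIF and serum. In standard RIBO-seq (3 biological replicates), ribosomes were pelleted through 30% sucrose, so that RPFs came from all ribosomes that sediment. In AHARIBO RIBO-seq (2 biological replicates), nascent chains carrying the methionine analog AHA (L-azidohomoalanine) were linked to biotin and pulled down with magnetic beads. This was meant to take RPFs from ribosomes holding a labeled chain. The study states that unlabeled background is unavoidable and may contribute to Ribo-seq signal. None of the libraries was a pulldown without AHA. The cells of both groups received cycloheximide, an elongation inhibitor, and RNase I (1.3 U, 45 min) removed unprotected RNA from every lysate in the presence of sBlock, the study's reagent that anchors nascent chains to ribosomes. The deposited labels call both groups untreated and name no genotype or difference between the cells. In the study's AHARIBO protocol, however, cells are first kept without methionine and then given AHA. Its ribosome profiling methods do not state these steps for either group. A figure legend says that standard RIBO-seq was performed on the input. The counts of a library, in which 1 read may be counted on several transcripts, summed to 6403651 to 11150527 after removal of duplicates. At these sums 3 counts correspond to 0.262 to 0.476 CPM. All 10 embryonic stem cell markers examined, among them Pou5f1 and Nanog, had at least 1 CPM in every library. Their summed level was 1500.5 to 1606 CPM in standard and 1349 to 1470 CPM in AHARIBO libraries. Of the 5 fibroblast markers only Thy1 reached 1 CPM in every library (sum 4.30 to 6.50 against 4.90 to 5.29 CPM). Neural markers summed to 52.0 to 52.8 against 44.5 to 48.3 CPM, mostly Tubb3, and endoderm markers to 2.98 to 4.28 against 2.10 to 3.40 CPM, with Afp close to 0 in every library.

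NMD is the pathway by which cells degrade mRNAs on which ribosomes stop too early. When a stop codon lies well upstream of the last exon junction, the exon junction complex left downstream of the terminating ribosome helps UPF1 and the SMG proteins to trigger decay. Because a ribosome has to reach the stop codon first, NMD targets are translated, at least in the first rounds, and RPFs can be recovered from them. Many genes of splicing regulators, SR protein genes above all, carry highly conserved poison exons that bring in such a stop and lower the amount of their own mRNA, and ribosomal protein genes are known for similar switches.

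To show what a premature stop looks like in the members on which the results turn, the last 30 nt of their annotated coding sequence are printed 5′ to 3′, with the stop codon in capitals (Gencode transcripts, GRCm38). In the first set the stop lies in an exon that no coding transcript of the gene overlaps, and the 30 nt occur in no coding transcript of the gene. The Actg1 exon is 45 nt long (chr11:120347492-120347536, minus strand), that of Tra2a 306 nt (chr6:49252803-49253108, minus), that of Srsf11 109 nt (chr3:158024123-158024231, minus), and that of Tdgf1 62 nt (chr9:110942768-110942829, minus). The Cox4i1 exon is 142 nt long (chr8:120671003-120671144, plus strand), that of Rps19 81 nt (chr7:24886107-24886187, plus), that of Mcu 113 nt (chr10:59600581-59600693, minus), that of Slc48a1 154 nt (chr15:97786802-97786955, plus), and that of Bspry 185 nt (chr4:62481675-62481859, plus).
Actg1: gttcctcttctcctggcatttcctcccTGA
Tra2a: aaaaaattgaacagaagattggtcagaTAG
Srsf11: gctgaagttcttttccctggttcagccTGA
Tdgf1: atacagaacactatcagaccatcagacTAG
Cox4i1: caggtggggacgatgccagttcttgccTAA
Rps19: gggaccaccatgactcaacacagcctcTGA
Mcu: cagcagcaccggacgggctttctttcaTGA
Slc48a1: ttttctgacttgcaagcactccacttcTGA
Bspry: agaatcactgagctgcatgtccagcccTAG

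The second set shows the other routes to an early stop. In Srsf5 the stop lies in the part by which an exon extends beyond those of the coding transcripts (chr12:80947116-80947381, plus strand), and the 30 nt again occur in no coding transcript. In Smg1 (chr7:118210739-118210875, minus), Tet1 (chr10:62813578-62813802, minus) and Ldah (chr12:8268364-8268598, plus) the stop triplet lies inside sequence that is coding in another transcript of the gene, and the same 30 nt occur in 2, 4 and 6 coding transcripts. In Srsf2 (chr11:116852021-116852331, minus) the stop is the regular one of the protein, and what makes the transcript a target is a junction downstream of it.
Srsf5: ggttttggttttgtgggcttctctgtaTAG
Smg1: atgacagagaccgaagactggctactgTAA
Tet1: ctgatgaatttggctccgtggaagggaTGA
Ldah: gctcttcccaactatcgaacgaatgtcTGA
Srsf2: ccagaagaagagggagcagtttcttccTAA

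These routes were unequally common among the 4769 members with an annotated stop in a sequence of the deposited version. The stop lay inside the coding sequence of a coding transcript in 2807 members, in an exon that no coding transcript overlaps in 1013, in an extended exon in 589, at the regular stop codon in 288, and in an untranslated exon in 72. In 4737 members (99.3%) the stop was more than 50 nt upstream of the last exon junction, at a median distance of 337 nt, and 32 members did not meet this rule. The median coding length was 307 nt, and it was 23.7% of the coding length of the highest coding transcript of the same gene. TGA was the stop in 57.6% of members, TAA in 22.7% and TAG in 19.7%, against 52.8%, 23.8% and 23.5% of 2928 highest coding transcripts of the same genes. An annotated start codon was shared with a coding transcript in 3287 members (68.9%), and the 5′ end of the coding sequence was annotated as incomplete in 1345.

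Most of the sequence of an NMD transcript is also that of its gene's mRNA, and this bounds what its read count can say. A median of 94.3% of the 30-nt windows of a member (quartiles 81.7% and 97.3%) occurred in coding transcripts of the same gene, and a median of 3.75% occurred in no other transcript. In 3012 members (63.1%) at least 90% of windows were shared with coding transcripts, and in 329 less than 50% were. In the deposited table a read appears to be counted on each transcript that it matches. Where a transcript was contained in full in another, its reads did not exceed those of the container in any library in 1344 of 1354 pairs (99.3%), and in 33 of 33 pairs with a contained NMD transcript. Slc4a7, a bicarbonate transporter gene, had the most members, 18, of which 17 had mean levels between 14.8 and 18.7 CPM and the other 2.03 CPM. Members of 1 gene are therefore not independent measurements, and a level does not say how many ribosomes were on the NMD transcript itself. Of the genes, 1992 had 1 member and 1082 had 2 or more.

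The share of counts on NMD transcripts, where 1 read may count several times, was nearly the same in the 5 libraries. It was 6.73%, 6.78% and 6.56% in standard RIBO-seq and 6.85% and 6.71% in AHARIBO RIBO-seq. The groups overlapped, and the means of 6.69% ± 0.115 (SD, n = 3) and 6.78% ± 0.0945 (SD, n = 2) differed by 0.0907 percentage points (exact two-sided permutation test over libraries, p = 0.6, where 0.1 is the smallest p that 3 against 2 libraries allow). The sign of this small difference was not stable, being -0.139 with duplicate reads kept and -0.0263 over members with at least 10% of windows in no coding transcript. Retained-intron transcripts of coding genes drew 14.6% of counts in standard and 14.4% in AHARIBO libraries, a difference of -0.266 percentage points with no overlap between the groups (exact permutation test, p = 0.1). Transcripts of the type processed transcript drew 6.02% and 5.99% (exact permutation test, p = 0.4).

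**Figure D1:**
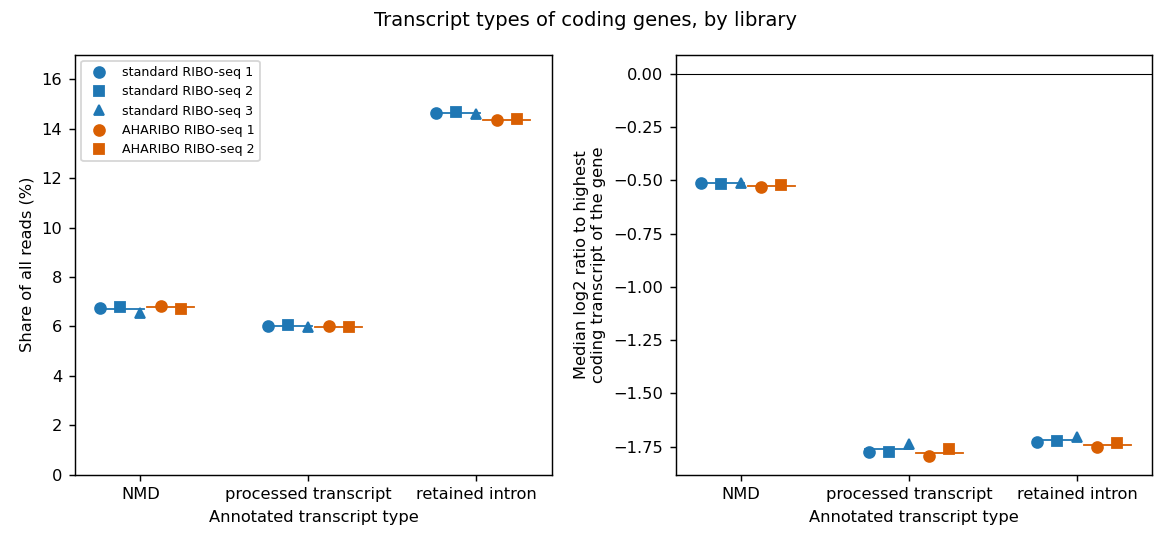
Left, share of all counts (%, labeled as reads) on NMD, processed and retained-intron transcripts of coding genes in each library. Right, the median log2 ratio of their CPM to that of the highest coding transcript of the gene. Each symbol is 1 library (blue standard, orange AHARIBO) and lines are group means; the NMD shares lie between 6.56% and 6.85%, and the NMD ratios between -0.53 and -0.51.

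The reads per member spanned a wide range, with a median of 6.73 CPM over the 5 libraries (quartiles 2.73 and 15.3) and 72 members at 100 CPM or more. Actg1, the gene of cytoplasmic gamma actin, held the NMD transcript with the most reads (ENSMUST00000131103.8). It had 374, 363 and 405 CPM in standard and 293 and 350 CPM in AHARIBO libraries. All standard values lay above the AHARIBO values, but the log2 difference of -0.24 ± 0.08 (SE) did not pass the test (edgeR adjusted p = 0.0648). Of its windows 93.9% were shared with Actg1 coding transcripts and 87.8% also with transcripts of other genes, so that the level cannot be assigned to this transcript alone. Phc1, which encodes a Polycomb protein, came next, with 320, 325 and 316 CPM against 284 and 293 CPM (edgeR adjusted p = 0.266). Behind these came Hnrnpu, with means of 311 and 274 CPM in standard and AHARIBO libraries, Ddx5 with 298 and 287 CPM, Hsp90ab1 with 241 and 219 CPM, Rpl10a with 213 and 190 CPM, Slc2a3 with 208 and 194 CPM, Eif4a1 with 213 and 183 CPM, Rpsa with 207 and 189 CPM and Gart with 199 and 196 CPM. None of these 10 passed the test, and their genes serve in RNA binding and unwinding, protein folding, translation, glucose uptake and purine synthesis.

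Relative to the highest coding transcript of the same gene, the NMD transcripts carried a median of 0.695 times as many reads (4745 members with a coding partner that passed the limit). On the log2 scale, with 0.5 CPM added to both, the median was -0.52 (quartiles -1.47 and -0.12). Per transcript length it was 0.22, so that reads per nt were more often higher on the NMD transcript than on its partner. In 1917 members (40.4%) both transcripts were within 1.25-fold, in 704 the NMD transcript was at least 4-fold lower, and in 10 at least 4-fold higher. It was below its partner in every library in 3954 members and above it in every library in 72. The library medians of -0.511, -0.519 and -0.511 in standard and -0.533 and -0.523 in AHARIBO libraries did not overlap and differed by -0.0144 (exact permutation test, p = 0.1, the smallest possible). This separation depended on the settings, with differences of -0.0073 over transcripts at 1 CPM in every library (exact permutation test, p = 0.4), -0.0118 with duplicates kept (p = 0.2), -0.0099 with 0.1 CPM added (p = 0.4) and -0.0097 with 1 CPM added (p = 0.3), and it was -0.0084 without AHARIBO replicate 1. The median of retained-intron transcripts was -1.72 in standard and -1.74 in AHARIBO libraries, and that of coding transcripts other than the highest -0.43 and -0.42. Among members with at least 10% of windows in no coding transcript of any gene (n = 1648), the NMD medians were -0.838, -0.846 and -0.826 against -0.887 and -0.865, again without overlap (difference -0.0394, exact permutation test, p = 0.1).

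The ratio was nearest to 0 where nearly all sequence is shared with coding transcripts of the gene, and showed no steady course beyond that when counted as reads. With up to 5% of windows outside the coding transcripts the median log2 ratio of reads was -0.30 (n = 2175), from 5% to 10% it was -0.86 (n = 834), and from 10% to 75% it lay between -0.90 and -0.82. Above 75% it was -0.55 (n = 61). Per length, the same medians were 0.21 and 0.40 in the first 2 classes, fell to -0.46 from 50% to 75% and to -0.92 above 75%. Sequence outside the gene's coding transcripts can still be that of other transcripts, and single members of these classes, such as those of Alg13 and Ramp2 described further on, had more reads per nt than their partner. Members that share an annotated start codon with a coding transcript had a median log2 read ratio of -0.24 and the others, of which most are incomplete at the 5′ end, -1.68. Per length these were 0.25 and 0.16. Where the coding sequence was up to 25% as long as that of the partner the median read ratio was -1.20 (n = 2405). Where it was 75% or more it was -0.07 (n = 443). Per length these were 0.31 and 0.05, in the opposite order. By stop position, counted as reads, the class at the regular stop codon had the highest ratio (-0.10, n = 285). The class with its stop in an exon that no coding transcript overlaps had the lowest (-0.62, n = 934). Per length these were 0.09 and 0.22, in the opposite order, and the lowest was that of extended exons (0.01).

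**Figure D2:**
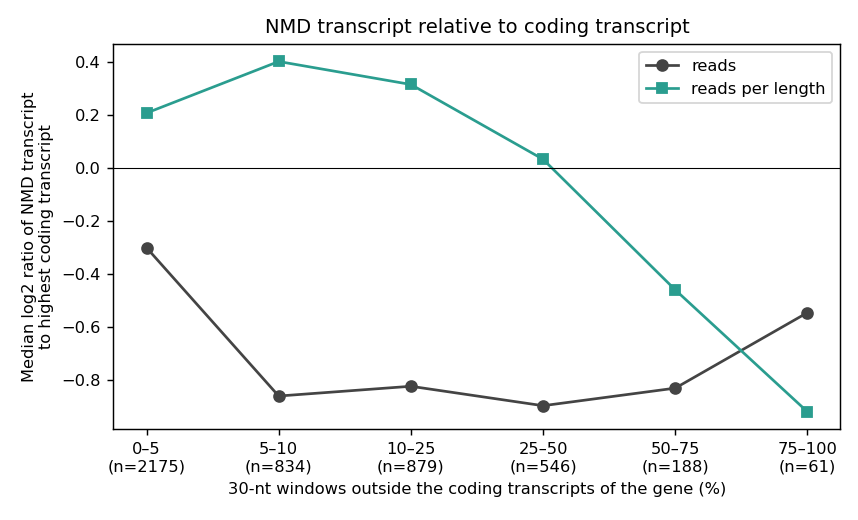
Median log2 ratio of NMD transcript to highest coding transcript, averaged over 5 libraries, by the percentage of 30-nt windows of the NMD transcript outside the coding transcripts of the gene (n, members per class). Counted as reads (black) the medians lie between -0.90 and -0.30; per length (green) they are 0.21 in the class that shares most sequence, 0.40 in the next, and lower in each class after that, down to -0.92.

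Some members share hardly any sequence with other annotated transcripts, so their counts are the least mixed with those of other transcripts. The 5 with the largest share of windows in no other transcript and at least 10 reads in every library were those of Mcu (94.8% of windows), Chmp4c (94.3%), Erp29 (91.0%), Slc35d1 (87.4%) and Tmem167 (86.1%). Erp29, which encodes a chaperone of the endoplasmic reticulum, had 17.5, 18.1 and 14.1 CPM against 13.7 and 14.6 CPM, with overlapping groups and 0.605 times the reads of its coding transcript (0.781 per length). Tmem167, with a secretory pathway protein as product, had 6.16, 6.18 and 5.08 CPM against 5.34 and 5.89 CPM. Chmp4c, an ESCRT-III gene, had means of 3.33 and 3.57 CPM, and Slc35d1, a nucleotide sugar transporter gene, of 2.14 and 2.30 CPM. Mcu was the only one of the 5 that passed the test between methods. The annotated coding sequence was a small part of each transcript: 159 of 2669 nt in Mcu, 195 of 4163 in Chmp4c, 285 of 4034 in Erp29. It was 633 of 4414 nt in Slc35d1 and 168 of 1226 in Tmem167. Whether the reads on them came from ribosomes on the NMD transcript was not tested.

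Several of the members far above their coding transcript overlap another gene. The NMD transcript of Ramp2, a receptor activity-modifying protein gene, had 21.1 CPM on average and its coding transcript 0.852 CPM, and 74.6% of its length lay in exons of Vps25 on the same strand. Gucd1 (25.8 against 2.34 CPM) overlapped Gm5779 on the opposite strand over 37.9% of its length, and Kctd18 (17.2 against 3.78 CPM) overlapped Sgo2a over 48.9%. Mfsd11 had 57.2 against 4.82 CPM (14.01-fold per length) and overlapped Srsf2 on the opposite strand over 11.1%. Alg13, which encodes a subunit of a glycosylation enzyme, had 3 members with 73.5, 96.3 and 105 CPM against 9.42 CPM on its coding transcript, and no overlapping gene was found for them. The counts are stated to exclude antisense reads, and the part of the overlaps in these levels was not tested. Of the 72 members above their partner in every library, 26 had over 10% of windows in another gene. Among members with at least 10 reads in every library and a coding transcript of at least 1 CPM in every library, the highest ratios per length after Mfsd11 were in Ufm1 (13.7-fold), Serbp1 (13.2-fold), Gucd1 (11.6-fold) and Hnrnpr (10.5-fold). Of these, only Gucd1 had more reads than its coding transcript (9.30-fold). In Ufm1 the reads were 0.815 of those of a coding transcript of 4890 nt, of which 255 nt are coding sequence. In Serbp1 they were 0.512 of those of a transcript of 15474 nt (1221 nt coding), and in Hnrnpr 0.420 of those of a transcript of 21452 nt (1896 nt coding), so that these ratios per length were set against mostly noncoding length. The lowest under the same limits were in Cdk5rap2 (0.0391-fold), Fgfr2 (0.0660-fold), Kxd1 (0.0861-fold), Cox6c (0.0874-fold) and the short Srsf2 transcript ENSMUST00000176834.7 (0.105-fold). In Cdk5rap2 a transcript of 5248 nt was set against a coding transcript of 711 nt (274 nt coding), and in Fgfr2 4429 against 2425 nt (546 nt coding). The coding transcript was longer in Kxd1 (884 against 639 nt) and Srsf2 (1899 against 620 nt), and shorter in Cox6c (503 against 648 nt). The part of these lengths in the low ratios was not tested.

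Between the methods, 174 members of 133 genes passed the test (edgeR quasi-likelihood, adjusted p below 0.05 over all transcripts), which was 3.60% of members beside 4.51% of all 66972 transcripts. Higher in AHARIBO RIBO-seq were 101 members of 80 genes (2.09% beside 2.27% of all transcripts), and lower were 73 of 54 genes (1.51% beside 2.24%). These shares lie close to those of transcripts in general, and the median log2 difference of the members was 0.01, beside 0.00 over all transcripts. Unadjusted p-values below 0.05 were found for 851 members, beside 18.7% of all transcripts (12536 of 66972). In 842 members (17.4%) both AHARIBO values lay above all standard values and in 735 (15.2%) below, beside 17.3% and 16.5% of all transcripts. Of the 174 calls, 171 were free of overlap between the groups, 170 belonged to members that reached 1 CPM with both methods, and 14 exceeded 2-fold (12 higher, 2 lower). The number of calls depended on the libraries: it was 29 without AHARIBO replicate 1, 58 without standard replicate 1 and 100 without standard replicate 3. With DESeq2 it was 11.

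The called NMD transcripts had mostly the same sign as the mRNA of their gene. The pairs share most of their sequence, how reads that match both are counted is not given, and these counts are a description. Of 170 called members with a coding partner, 160 had the sign of the partner, and in 97 the partner was itself called in the same direction. In the 10 with the opposite sign the partner was never called. Several calls came from single genes, and 24 genes had more than 1. Tmem234, a transmembrane protein gene, supplied 11 of the 73 lower calls (log2 differences from -0.51 to -0.34), Ldah 5 of the higher ones (0.72 to 0.84), and Taf1d, which encodes a subunit of the RNA polymerase I selectivity factor, 4 (0.594 to 1.097). When the test of the ratio itself was applied to 4745 pairs, none passed (limma, lowest adjusted p = 0.117), as none did among all 47415 pairs of coding genes (0%). Unadjusted p-values below 0.05 were found for 566 of the NMD pairs (11.9%, 229 higher and 337 lower in AHARIBO), beside 15% of all pairs. With the coding transcript as an offset in edgeR, 0 of 4503 NMD pairs passed and 248 had an unadjusted p below 0.05, beside 7.72% of all 45148 pairs. The median standard error of the log2 ratio was 0.0754.

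Of the called members with at least 10 reads in every library and no overlap between the groups, the largest increases, at most 1 per gene, in AHARIBO RIBO-seq were those of 2610507B11Rik, Pcnx, Bdp1, Zfp236 and Ldah. The transcript of 2610507B11Rik had 1.79, 2.43 and 2.22 CPM in standard and 3.94 and 4.69 CPM in AHARIBO libraries, a log2 difference of 1.00 ± 0.24 (SE, edgeR adjusted p = 0.00881). Pcnx had 3.47, 4.08 and 2.22 CPM against 7.17 and 6.19 CPM. Bdp1, which encodes a subunit of the RNA polymerase III factor TFIIIB, had 2.35, 2.54 and 1.90 CPM against 4.99 and 3.99 CPM. In all 3 genes the coding transcript was called higher too (log2 differences of 0.73, 0.83 and 0.48). Zfp236, a zinc finger gene, had 2.69, 3.53 and 2.22 CPM against 5.42 and 5.89 CPM (log2 difference 0.97 ± 0.21). Ldah, which encodes a hydrolase of lipid droplets, had 3.14, 3.31 and 3.33 CPM against 5.42 and 6.29 CPM (0.84 ± 0.20). The coding transcripts of both genes were called higher as well (0.87 and 0.65). DESeq2 gave no adjusted p for any of the members named so far in this paragraph. The calls of Bdp1 and Pcnx were lost without AHARIBO replicate 1 (edgeR adjusted p = 0.29 and 0.056). Those of 2610507B11Rik and Ldah were lost without AHARIBO replicate 2 (0.063 and 0.055), that of 2610507B11Rik also without standard replicate 1 (0.082) and with duplicates kept (0.055), and that of Zfp236 with duplicates kept (0.059). A larger difference at fewer reads was that of Rpgrip1, a gene of the photoreceptor cilium, with 1.34, 1.104 and 0.476 CPM against 3.59 and 3.69 CPM (1.81 ± 0.31, edgeR adjusted p = 0.000131). This transcript overlaps Supt16 on the opposite strand over 61.0% of its length, and the part of that overlap was not tested.

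Among the members with the largest decreases under the same limits, those of Slc48a1, Mcu and Bspry have their stop in an exon of their own. Slc48a1, which encodes a heme transporter, had 2.91, 2.87 and 2.06 CPM in standard and 0.962 and 0.999 CPM in AHARIBO libraries, a log2 difference of -1.44 ± 0.34 (SE, edgeR adjusted p = 0.00805). Mcu, which encodes the pore of the mitochondrial calcium uniporter, had 5.94, 4.08 and 4.92 CPM against 2.36 and 2.80 CPM (-0.95 ± 0.23, edgeR adjusted p = 0.00779). Bspry had 2.80, 3.42 and 3.33 CPM against 1.49 and 1.90 CPM (-0.91 ± 0.28, edgeR adjusted p = 0.0471). That the groups of these 3 are free of overlap follows from how they were chosen. Slc48a1 was below 1 CPM in both AHARIBO libraries, so it became a member only through the standard group, in which it is high. Their coding transcripts were not called, with log2 differences of -0.52, -0.19 and -0.41, and the shift of the ratio was -0.63, -0.65 and -0.40 without passing the limma test. Vps51, a gene of the GARP tethering complex, had 5.27, 6.51 and 6.19 CPM against 3.32 and 2.80 CPM (-0.95 ± 0.20), and its transcript overlaps Gm28374 on the same strand over 62.2%. Fam178b had 4.48, 3.86 and 2.70 CPM against 1.84 and 1.90 CPM (-1.01 ± 0.26). In Vps51 and Fam178b the stop lies in coding sequence of a coding transcript. Their coding transcripts were not called either (-0.23 and -0.29), and the ratio shifted by -0.63 and -0.53 without passing the limma test. For none of the members named in this paragraph did DESeq2 give an adjusted p. The calls of Slc48a1, Mcu, Bspry and Fam178b were lost without AHARIBO replicate 1 (edgeR adjusted p from 0.12 to 0.45), without standard replicate 1 (0.06 to 0.15) and with duplicates kept (0.052 to 0.25), and that of Bspry also without any other single library.

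**Figure D3:**
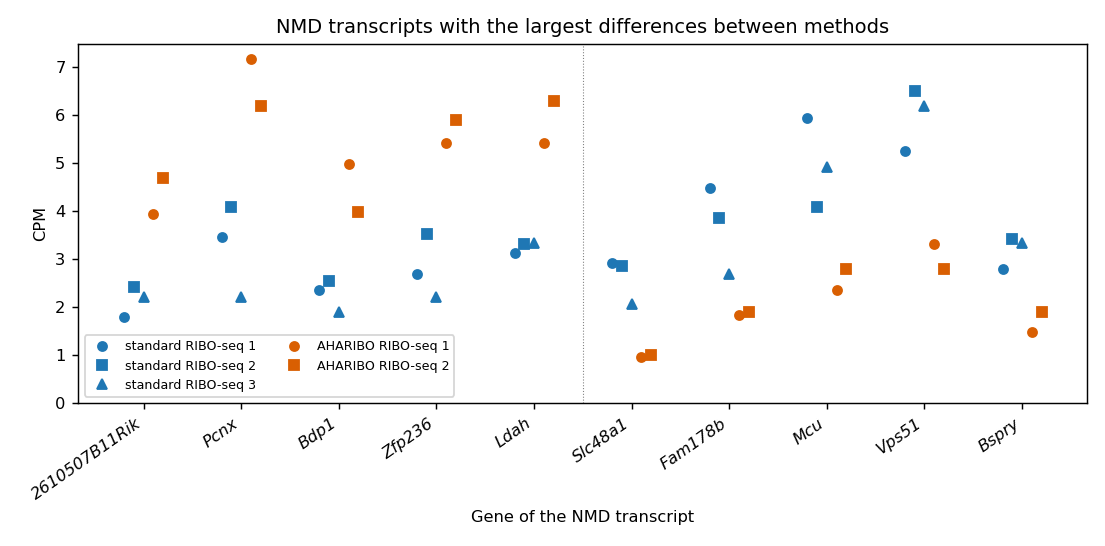
CPM in each library (blue standard, orange AHARIBO, 1 symbol per library) of the NMD transcripts with the 5 largest increases (left of the dotted line) and the 5 largest decreases (right) among called members with at least 10 reads in every library and no overlap between groups, at most 1 per gene. The groups are apart in all 10 genes because the choice required it, and every level shown is below 8 CPM.

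The called members differed in the size of the protein that their genes encode, a pattern noticed after the values were seen. The coding sequence of the highest coding transcript had a median of 2916 nt for members higher in AHARIBO RIBO-seq (n = 98), 813 nt for those lower (n = 69) and 1551 nt for all members. Of members of genes with less than 500 nt of coding sequence (n = 236), 1 was higher and 20 were lower, while of those with 4000 nt or more (n = 383) 27 were higher and 3 lower. In the classes between, from short to long, 12, 17 and 41 were higher and 20, 22 and 4 lower. Among all transcripts 2.27% were higher and 2.24% lower. Several calls can come from 1 gene, Tmem234 alone supplying 11 of the lower ones and Ldah 5 of the higher ones. Counted by gene, 1, 4, 13, 34 and 25 genes had a higher call and 10, 15, 20, 4 and 2 a lower one, from the shortest class to the longest. The median log2 difference rose through the classes from -0.09 over -0.05, -0.01 and 0.07 to 0.19. As a single value per library, the median deviation in the longest class minus that in the shortest was -0.131, -0.0422 and -0.130 in standard and 0.237 and 0.0719 in AHARIBO libraries. The groups did not overlap, and their means differed by 0.255 (exact permutation test, p = 0.1, the smallest possible). The 2 AHARIBO libraries stood further apart in this value than the 3 standard ones, and without AHARIBO replicate 1 the difference was 0.173. It was 0.274 over members with at least 10% of windows in no coding transcript. The same order held for coding transcripts, with medians of 2931 nt for those higher, 618 nt for those lower and 1368 nt for all, so it is not a property of NMD transcripts alone.

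**Figure D4:**
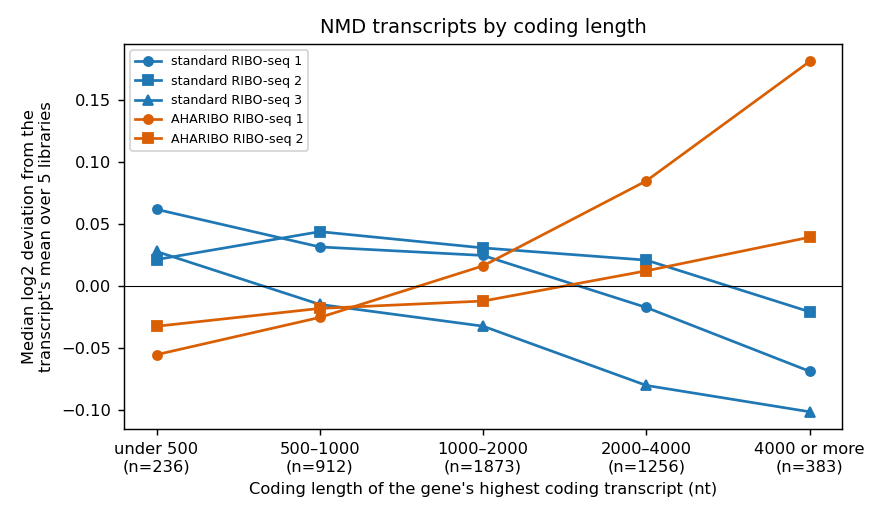
Median log2 deviation of NMD transcripts from their mean over the 5 libraries, by the coding length (nt) of the highest coding transcript of the gene (n, members per class); each line is 1 library (blue standard, orange AHARIBO). AHARIBO lies below standard for coding lengths under 500 nt and above it at 4000 nt or more, with AHARIBO replicate 1 furthest from 0 at the long end.

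SR proteins, the activators of splice sites whose genes carry the best known poison exons, had 15 members in 10 of 13 genes, and all NMD transcripts listed for them passed the limit. None was higher in AHARIBO RIBO-seq and 2 were lower, beside 2.24% lower among all transcripts, at a median log2 difference of -0.12, beside 0.00 over all transcripts. The long Srsf2 transcript (ENSMUST00000136914.7), which uses the regular stop printed above, had 164, 154 and 164 CPM in standard and 126 and 127 CPM in AHARIBO libraries, without overlap (-0.34 ± 0.08, edgeR adjusted p = 0.00517). All of its windows occur in Srsf2 coding transcripts, whose highest member was called lower too (-0.32), and it overlaps Mettl23 on the opposite strand over 23.2%. Srsf5 had 39.2, 36.4 and 43.8 CPM against 30.2 and 32.8 CPM, also without overlap (-0.33 ± 0.09, edgeR adjusted p = 0.0249). Its coding transcript was not called (-0.15). Both calls were lost without standard replicate 1 and without AHARIBO replicate 1. The Srsf5 call was also lost without standard replicate 3 (edgeR adjusted p = 0.114), with duplicates kept (0.202) and with DESeq2 (0.17). Of the Srsf5 windows 29.3% occur in other genes. The Mfsd11 transcript that lies across from Srsf2 was lower to a similar degree (65.1, 59.6 and 63.6 CPM against 46.8 and 50.8 CPM, -0.36 ± 0.08, edgeR adjusted p = 0.00595). That call was lost without AHARIBO replicate 1 (edgeR adjusted p = 0.18), without standard replicate 1 (0.08) and with DESeq2 (0.059), and the difference was -0.68 with duplicates kept. Another Mfsd11 NMD transcript, ENSMUST00000106365.8, with a mean of 4.04 CPM, was called in the opposite direction (0.75, edgeR adjusted p = 0.0267), and the coding transcript of the gene was at 0.59 without a call (edgeR adjusted p = 0.0615).

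Relative to the mRNA, the SR members ranged over more than 4 units of log2. The long Srsf2 transcript (-0.03), Srsf3 (-0.07), Srsf6 (-0.09) and Tra2a (-0.09) carried about as many reads as the coding transcript, Tra2b came at -0.31, and Srsf5 (-1.56), Srsf1 (-2.03 and -3.26) and Srsf4 (-2.07 and -2.54) stood well below it. The Tra2a transcript, with the 306-nt exon shown above and 16.1% of windows in no other transcript, had 45.5, 37.5 and 43.9 CPM against 35.9 and 41.9 CPM, with overlapping groups (edgeR adjusted p = 0.514). Srsf11, a related splicing factor, had 3 members at log2 ratios of -0.59, -1.85 and -2.37. The one with most reads had 27.7, 28.7 and 22.4 CPM against 22.0 and 20.9 CPM, a log2 difference of -0.31 ± 0.10 without overlap that did not pass the test (edgeR adjusted p = 0.0759). Both Srsf4 members (log2 differences of 0.40 ± 0.18 and 0.55 ± 0.21) and the short Srsf2 transcript (0.50 ± 0.20) had higher values in both AHARIBO libraries than in any standard one, and did not pass the test either (edgeR adjusted p from 0.13 to 0.21). Srsf3 had means of 92.8 ± 3.88 and 94.5 ± 11.3 CPM, and Tra2b of 86.6 ± 2.56 and 80.1 ± 4.97 CPM (SD, n = 3 and n = 2). Their sequences differ in length between the annotations, so no windows were compared for these 2.

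**Figure D5:**
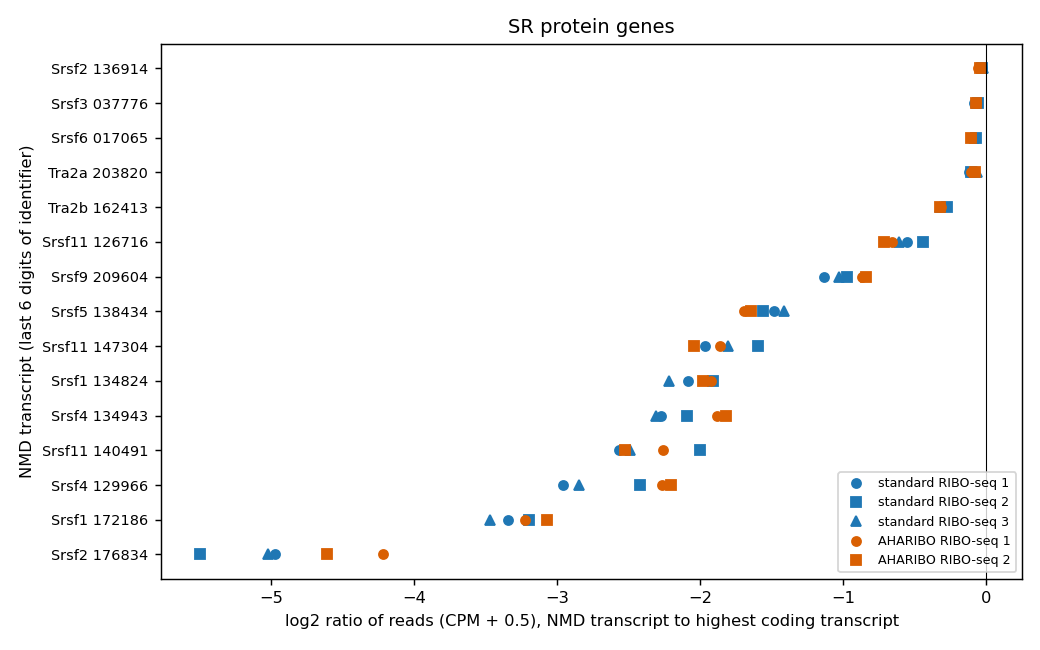
log2 ratio of reads (CPM + 0.5) of each NMD transcript of SR protein genes to the highest coding transcript of its gene, in each library (blue standard, orange AHARIBO); labels give the symbol and the last 6 digits of the transcript identifier. The ratios go from about 0 in the long Srsf2 transcript to below -4 in the short one, and differ more between transcripts than between libraries.

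The other splicing regulators, hnRNPs, PTB proteins, CLK kinases and spliceosome components, had 80 members in 31 genes, and 0 passed the edgeR test in either direction, beside 4.51% of all transcripts (median log2 difference -0.01). Unadjusted p-values below 0.05 were found for 4 with higher and 15 with lower values in AHARIBO, beside 18.7% of all transcripts in either direction, and DESeq2 called 0. With other settings up to 2 were called in either direction. Hnrnpa2b1 had means of 185 and 179 CPM, Hnrnpa1 of 189 and 168 CPM, and Ptbp1, the polypyrimidine tract-binding protein gene known for switching itself off through a skipped exon, of 180 and 161 CPM. Ptbp1 had 178, 181 and 180 CPM in standard and 156 and 167 CPM in AHARIBO libraries, without overlap between the groups (log2 difference -0.16, edgeR adjusted p = 0.255). The median of the group's log2 ratios to the coding transcript was -1.09, between -5.79 and 0.18.

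The factors of the pathway itself had 10 NMD members in 7 of 30 genes, of which 1 was higher and 1 lower, beside 2.27% higher and 2.24% lower among all transcripts. Smg1, which encodes the kinase that phosphorylates UPF1, had 18.9, 20.4 and 23.5 CPM in standard and 31.8 and 27.0 CPM in AHARIBO libraries, without overlap (0.51 ± 0.10, edgeR adjusted p = 0.0015). Its coding transcript, with 10974 nt of coding sequence, had means of 28.0 ± 2.02 and 35.4 ± 4.02 CPM and was the only one of 30 coding transcripts of the pathway to be called (0.35, edgeR adjusted p = 0.0181). The call of the Smg1 NMD transcript was lost without AHARIBO replicate 1 (edgeR adjusted p = 0.16) and with DESeq2 (0.0713). Ruvbl2, whose product belongs to an ATPase complex that binds SMG1, had 49.7, 45.8 and 46.3 CPM against 36.1 and 41.3 CPM (-0.29 ± 0.09, edgeR adjusted p = 0.041). The Ruvbl2 call was lost without AHARIBO replicate 1 (edgeR adjusted p = 0.56), standard replicate 1 (0.23) or standard replicate 3 (0.057), with duplicates kept (0.13), with library size in place of TMM (0.074) and with DESeq2 (0.20). Dcp1a, a decapping gene, had means of 19.1 and 20.2 CPM, and Smg5 of 11.3 and 13.3 CPM. The coding transcript of Upf1 had means of 120 ± 4.49 and 109 ± 1.28 CPM, and that of Upf2 of 20.7 ± 1.15 and 23.4 ± 0.729 CPM.

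Genes of cytosolic ribosomal proteins had 23 members in 18 of 86 genes, with 0 higher and 5 lower, beside 2.24% lower among all transcripts (median log2 difference -0.17). Rps19, whose NMD transcript has its stop in the 81-nt exon shown above, had 132, 120 and 135 CPM against 96.2 and 113 CPM (-0.30 ± 0.08, edgeR adjusted p = 0.0235). The Rps19 difference was -0.06 with duplicates kept (edgeR adjusted p = 0.76) and -0.18 without AHARIBO replicate 1 (0.509). Rpl12 had 172, 156 and 189 CPM against 127 and 149 CPM, and Rpl27a 107, 105 and 118 CPM against 79.9 and 96.7 CPM. In these 3 members the groups did not overlap, and the log2 differences lay between -0.32 and -0.30. The coding transcripts behaved alike, with 20 of 86 lower and 0 higher (median -0.19). Between 48.7% and 78.7% of the windows of these 3 members occur in other genes, and the part of reads from those genes in these levels was not tested. Without AHARIBO replicate 1 the differences were -0.20 in Rpl12 and -0.18 in Rpl27a, and none of these 3 calls held with DESeq2. None of the ribosomal protein calls held without AHARIBO replicate 1, without standard replicate 1, without standard replicate 3 or with duplicates kept, and 11 ribosomal protein members were lower without AHARIBO replicate 2, where the lower calls among all NMD transcripts rose from 73 to 87.

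Translation factors had 27 members in 14 genes, 2 of them higher and 0 lower, beside 2.27% higher among all transcripts. Both belonged to Eif5, which encodes the GTPase activator of start codon recognition. The lower one had 10.6, 11.04 and 9.04 CPM against 15.1 and 13.7 CPM (0.48 ± 0.13, edgeR adjusted p = 0.019), the other 39.5, 31.9 and 37.1 CPM against 44.7 and 44.5 CPM (0.31 ± 0.09, edgeR adjusted p = 0.0359). The Eif5 coding transcript was not called (0.08). Neither call held without AHARIBO replicate 1 or without standard replicate 3, and that of the other was also lost with DESeq2 (0.24). Eif4a1, the RNA helicase of cap-dependent initiation, had 211, 205 and 223 CPM against 166 and 200 CPM, and Eef1b2, Pabpc4 and Eif2a had means of 169, 138 and 57.1 against 153, 128 and 58.1 CPM, none of them called.

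Subunits of the respiratory chain and ATP synthase had 23 members in 20 genes, 0 higher and 1 lower, a share near the 2.24% lower among all transcripts. Ndufa3, a complex I subunit, had 17.6, 17.4 and 18.7 CPM against 11.8 and 15.4 CPM (-0.40 ± 0.12, edgeR adjusted p = 0.0398), and this call was lost in several alternatives, such as without AHARIBO replicate 1 (-0.21, adjusted p = 0.68) and with duplicates kept (-0.14, adjusted p = 0.502). Cox4i1, with 29.0% of windows in no other transcript and the 142-nt exon shown above, had 80.4, 82.1 and 87.1 CPM against 66.5 and 73.8 CPM. The groups were apart, but the log2 difference of -0.25 ± 0.08 did not pass the test (edgeR adjusted p = 0.0699), and its coding transcript differed by the same amount (-0.24). Atp5f1 had means of 84.0 and 79.2 CPM, Atp5o of 54.4 and 54.6 CPM, and Atp5a1 of 50.4 and 49.4 CPM. Proteasome subunits had 20 members in 11 genes and 0 calls by edgeR and DESeq2 (1 with an unadjusted edgeR p below 0.05), too few members to read this against the 4.51% called among all transcripts, with means of 153 and 147 CPM for Psmd2, 121 and 120 CPM for Psmd1, 74.2 and 71.1 CPM for Psmc5 and 62.5 and 62.7 CPM for Psmd13.

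Of 22 pluripotency genes only Tdgf1 and Tet1 had members. Tdgf1 encodes Cripto, a NODAL co-receptor of undifferentiated cells, and its NMD transcript with the 62-nt exon had 129, 136 and 135 CPM in standard and 131 and 137 CPM in AHARIBO libraries, with overlapping groups (0.01 ± 0.08). It had 0.951 times the reads of its coding transcript. Tet1, which encodes a 5-methylcytosine dioxygenase, had 7.84, 8.61 and 6.50 CPM against 11.3 and 11.5 CPM, without overlap (0.55 ± 0.14, edgeR adjusted p = 0.0155), and its coding transcript was called in the same direction (0.49). The call of the NMD transcript was lost without AHARIBO replicate 1, standard replicate 1 or standard replicate 3 (edgeR adjusted p = 0.13, 0.065 and 0.071).

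The 3 called members with overlapping groups included that of Lars2, the mitochondrial leucyl-tRNA synthetase gene. It had 49.6, 61.4 and 114 CPM in standard and 81.0 and 274 CPM in AHARIBO libraries (log2 difference 1.27 ± 0.21, edgeR adjusted p = 4.3e-05), and its coding transcript differed by the same amount. Without AHARIBO replicate 2 the log2 difference was 0.15 (edgeR adjusted p = 0.53). Gm42418, a gene at the ribosomal RNA sequence, had 438, 455 and 791 CPM against 485 and 1139 CPM, and AY036118 269, 275 and 534 CPM against 268 and 788 CPM. Standard replicate 3 and AHARIBO replicate 2 were thus the highest of their groups in all 3, and the part of these sequences in the Lars2 counts was not tested.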

How the data were processed

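RPFs of 25 to 35 nt were sequenced from 3 standard and 2 AHARIBO RIBO-seq libraries. The authors trimmed reads with Trimmomatic 0.36, removed rRNA and tRNA reads, used STAR to align what was left to Gencode transcripts, discarded antisense reads, and deposited counts per transcript with duplicates removed, used here, and with duplicates kept, besides transcript lengths. How reads matching several transcripts were counted is not given in the sources used here. Unused columns of per-sample values numbered 0. Without molecular identifiers, floors cover counting error only.

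TMM factors, CPM and quasi-likelihood tests came from edgeR 4.0.16 (R 4.3.3) with Benjamini-Hochberg adjustment over all 66972 transcripts with 1 CPM in at least 1 library; DESeq2 1.42.0 was an alternative. The log2 ratio (pseudocount 0.5 CPM) was tested with limma 3.58.1, and single values by exact permutation over libraries. Standard errors were derived from the log2 fold change and F statistic. Transcript types, sequences and coordinates came from Gencode M21 (GRCm38), which held 135047 identifiers (99.8%); sequence features cover the 4770 members of equal version. Members and gene lists were chosen with earlier results of these data known. Named members are the highest in CPM (10), the called ones with at least 10 reads per library, no overlap between groups and the largest differences (5 each way, at most 1 per gene), those with the highest and lowest ratio per length under the same read limit and at least 1 CPM on the coding transcript in every library (5 each), the top 4 per list, and the 5 with most sequence of their own; Lars2, Ramp2, Kctd18, Alg13, Rpgrip1, Eif5, Rpl12, Rps19, Rpl27a, Ndufa3, Srsf1, Srsf4, Srsf5, Srsf11, Tra2a, Tmem234, Taf1d, Slc4a7 and a second Mfsd11 transcript were not picked by this rule but with their values in view. Some members that the rule names are not reported here. On simulated data, the edgeR test recovered 65% of 2-fold and 92% of 4-fold changes with 12 false calls among 67337 transcripts. The limma ratio test recovered 47% and 82% with 4 false calls among 47557. Counts of each transcript were simulated separately. The recovery therefore does not cover changes of a transcript whose reads are also counted on its coding partner.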

Additional observations from a re-analysis of the deposited data

How the results depend on the processing

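The 174 calls (101 higher, 73 lower) changed in number with most settings. With duplicate reads kept they were 104 (56 higher, 48 lower), with DESeq2 11 (7 and 4; DESeq2 set 3722 NMD transcripts to NA and called 267 transcripts in all), and with library size in place of TMM 177 (132 and 45). With 1 transcript per gene they were 106 (64 and 42), over members with at least 10% of windows in no coding transcript 61 (23 and 38), and at adjusted p below 0.01 49 (36 and 13). Leaving out 1 library gave 29 to 213 calls (21 to 126 higher and 8 to 87 lower), with the lowest count without AHARIBO replicate 1 (21 higher, 8 lower), 58 (48 and 10) without standard replicate 1, 100 (57 and 43) without standard replicate 3, and the highest without AHARIBO replicate 2. A filter of 1 CPM in every library gave 167 and no filter 183. The difference in the share of counts reversed to -0.139 percentage points with duplicates kept and to -0.0263 over members with at least 10% of windows in no coding transcript. The difference in the median ratio stayed negative in all alternatives run, and no ratio was called in any. The cause of these changes was not tested.

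With the replicate number as a block, 106 members were called (59 higher, 47 lower). Same-numbered libraries did not deviate together (correlations of 0.0386 and -0.0831), so the numbers were not taken as pairs. As the study describes standard RIBO-seq as performed on the input, a pairing of libraries remains possible. With the block Bspry lost its call (edgeR adjusted p = 0.114), and the other members with the largest differences kept theirs. In libraries of this depth, differences at a few CPM rest on 10 to 100 reads, and chi-square per degree of freedom between replicates was 1.22 to 1.86. The difference between coding length classes, added after the data were seen, was 0.211 with duplicates kept, 0.252 with 1 transcript per gene and 0.173 to 0.322 with 1 library left out.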
